A study of Mus musculus with 16 samples.

Results

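The effect of the BRD9 inhibitor iBRD9 was measured in mouse bone marrow-derived monocytes (BMDMs) during osteoclastic induction, by comparing the 4 libraries of MR + iBRD9 with the 4 libraries of MR + vector, which are 8 of the 16 messenger RNA libraries of the study. The members were chosen from the treatment given for each library and not from any measured value. Cells came from the leg bones of C57BL/6 mice, and every group received 50 ng/ml of recombinant M-CSF. The MR groups also received 100 ng/ml of recombinant RANKL, and iBRD9 or vector was given on top for a day of induction, at a concentration that the labels do not state. The other 8 libraries, M + iBRD9 and M + vector with 4 each, had M-CSF without RANKL and are used here only to set the response with RANKL beside the response without it. The labels do not say whether the replicates were separate cultures or animals, so the p-values measure the spread between these libraries, which may be technical.

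BRD9 is a bromodomain protein that recognizes acetylated lysines and is a defining subunit of the non-canonical BAF (ncBAF) chromatin remodeling complex, and iBRD9 occupies its bromodomain. RANKL drives monocytes and macrophages toward osteoclasts, the bone-resorbing cells, through NF-κB, the AP-1 protein FOS and NFATC1. The same precursors answer RANKL with type I interferon, which signals through STAT2 and IRF9 to interferon-stimulated genes (ISGs) and restrains osteoclast formation.

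The 8 libraries held between 15372775 and 17355544 counts. Expression is given below as CPM, the counts of a gene scaled to a common library size with TMM factors, fold changes as log2 with the standard error (SE), and p-values as Benjamini-Hochberg adjusted values from edgeR's quasi-likelihood test, with a gene called at an adjusted p below 0.05. The transcript of the inhibited protein did not differ detectably: Brd9 was at 52.9, 53.1, 59.99 and 55.9 CPM in MR + vector and at 49.8, 58.03, 53.9 and 54.8 CPM in MR + iBRD9, with overlapping libraries (adjusted p = 0.86). Of the 12 macrophage markers, summed at 25100 to 26400 CPM in MR + vector and at 22500 to 23300 CPM in MR + iBRD9, 4 fell and none rose, where 2.05% of all genes tested fell and 0.718% rose. Over the 8 libraries, 4 of 9 B cell markers, among them Pax5, and 6 of 12 T and NK cell markers, among them Cd3d, Cd3e and Cd8a, had no count, and the sums were 1.67 to 3.57 CPM for B cells and 2.63 to 6.05 CPM for T and NK cells. The 12 markers of erythroid cells and megakaryocytes, of which 6 including the hemoglobin genes had no count, summed to 105 to 121 CPM in MR + vector and 88.3 to 98.5 CPM in MR + iBRD9. These sums did not overlap, most of the level was Pf4 (mean 115 CPM with vector and 92.7 CPM with iBRD9), and their part in the results below was not tested. In these bulk samples, fewer cells of a type and less RNA per cell cannot be told apart.

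BRD9 inhibition during RANKL induction lowered more genes than it raised. Of 11559 genes tested, 320 were called, 83 higher and 237 lower, which is 2.77% of genes tested, 0.718% for higher and 2.05% for lower. The changes were small: the median called rise was 1.24-fold and the median called fall 1.2-fold. A total of 13 called genes rose and 25 fell by at least 1.5-fold, and 6 rose and 7 fell by at least 2-fold. Among rises with at least 5 CPM in the higher group and no overlap of libraries, the largest was Gstt1 (log2 change 0.96), below 2-fold. The 6 rises of at least 2-fold therefore had less than 5 CPM or overlapping libraries. The means of called genes reached down to 0.208 CPM in the higher group. In 304 of the 320 called genes the libraries of the groups did not overlap, against 9.54% of all genes tested. Genes were called on these same libraries, so a high share follows from the selection. Principal components were taken from the genes that varied most over these 8 libraries. The groups separated on the first, which held 18.7% of the variance of those genes. Vector libraries scored from -11.47 to -3.27 and iBRD9 libraries from 4.94 to 13.00. Leaving out each of the 8 libraries in turn kept 143 of the 320 calls in every fit, 37 higher and 106 lower. The number called was 200 without MR + vector replicate 1, 199 without MR + vector replicate 2, 207 without MR + vector replicate 4 and 205 without MR + iBRD9 replicate 4.

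**Figure D1:**
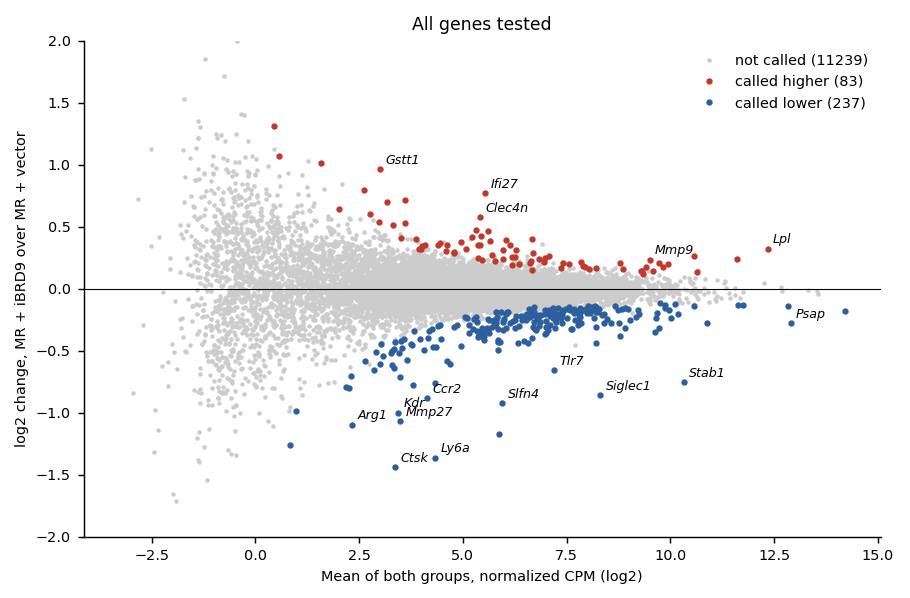
Each point is 1 of the 11559 genes tested, with the mean of both groups in normalized CPM (log2) on the x axis and the log2 change of MR + iBRD9 over MR + vector on the y axis. The 237 genes called lower (blue) outnumber the 83 called higher (red), most called genes lie close to the zero line, and 3 genes of low expression, all called higher, lie outside the plotted range.

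Receptors by which macrophages take up modified lipoproteins, glycans and dying cells were among the genes that fell with iBRD9. Stab1, which encodes the scavenger receptor stabilin-1 (ENSMUSG00000042286, chr14:30860970-30890598 on GRCm39), was at 1662, 1582, 1580.1 and 1597 CPM in MR + vector and at 958, 981, 919 and 953 CPM in MR + iBRD9. The libraries lay close together within each group and the groups did not overlap. Stab1 fell by 0.75 ± 0.05 (SE) on the log2 scale (edgeR adjusted p = 1e-12). Siglec1, the sialic acid receptor CD169 (ENSMUSG00000027322, chr2:130911140-130928685 on GRCm39), was at 432, 442, 351 and 419 CPM with vector and at 248, 222, 219 and 217 CPM with iBRD9. MR + vector replicate 3 was the lowest vector library and still stood above every iBRD9 library, and Siglec1 fell by 0.86 ± 0.07 (SE; adjusted p = 8.5e-11). The mannose receptor Mrc1 was at 489, 512, 483 and 508 CPM with vector and at 398, 396, 367 and 369.7 CPM with iBRD9, again without overlap, and fell by 0.38 ± 0.04 (SE; adjusted p = 7e-08). In the list of scavenger and mannose receptors, 4 of 14 tested members fell and 1 rose, against 2.05% and 0.718% of all genes tested. The median log2 change was -0.086 in the list and -0.0004 for all genes. The class A receptor Msr1 fell by 0.25 (adjusted p = 0.0014). The member that rose was Cd36, the fatty acid and oxidized lipoprotein receptor, at 1487, 1456, 1573 and 1544 CPM with vector and 1708, 1639, 1641 and 1677 CPM with iBRD9 (log2 change 0.14, adjusted p = 0.034), and its call was lost (adjusted p up to 0.164) in each fit without 1 of the 8 libraries except that without MR + vector replicate 3.

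Genes of receptors for chemokines, a growth factor and microbial products were also among those that fell. Ccr2, the receptor that lets monocytes follow CCL2, was at 21.3, 25.4, 20.2 and 24.2 CPM in MR + vector and at 13.1, 13.8, 11.2 and 11.3 CPM in MR + iBRD9 and fell by 0.88 ± 0.10 (SE; adjusted p = 1.7e-07). The eotaxin receptor gene Ccr3 was at 2.94, 2.73, 2.22 and 2.17 CPM with vector and 1.72, 0.618, 0.993 and 0.797 CPM with iBRD9. Its libraries did not overlap, and it fell by 1.27 ± 0.27 (SE; adjusted p = 0.0051). Kdr, which encodes the VEGF receptor VEGFR2, was at 15.5, 14.5, 13.3 and 14.7 CPM with vector and at 6.35, 7.72, 6.19 and 8.77 CPM with iBRD9. The groups did not overlap, Kdr fell by 1.002 ± 0.12 (SE; adjusted p = 1.7e-06), and the VEGF co-receptor gene Nrp1 fell by 0.20 (adjusted p = 0.0072). Tlr7, the endosomal receptor for single-stranded RNA, was at 170.3, 194, 168 and 187 CPM with vector and at 119.9, 119, 108 and 109.8 CPM with iBRD9 and fell by 0.66 ± 0.05 (SE; adjusted p = 8.5e-11). Of 14 Toll-like receptor and co-receptor genes tested, 4 fell and none rose, against 2.05% and 0.718% of all genes tested. Those that fell include Tlr2, a receptor for bacterial lipopeptides (log2 change -0.25), and Cd180, a relative of TLR4 (log2 change -0.19, with an adjusted p of 0.0542 without MR + vector replicate 1). Without that library 2 of the 14 were called.

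Some receptor genes rose. Clec4n, which encodes dectin-2, a receptor for fungal mannans, was at 30.5, 36.2, 36.7 and 32.99 CPM with vector and at 50.3, 53.7, 50.6 and 48.6 CPM with iBRD9. All 4 iBRD9 libraries stood above all 4 vector libraries, and it rose by 0.57 ± 0.07 (SE; adjusted p = 6.4e-06). Of the 12 C-type lectin receptor genes tested, 2 rose and none fell, against 0.718% and 2.05% of all genes tested. The other that rose, Clec4a2, kept its call, among the 8 fits without 1 library, only without MR + vector replicate 3 or MR + iBRD9 replicate 1. Its adjusted p was up to 0.155 without the others. The chemokine receptor gene Cxcr3 rose by 0.54 (adjusted p = 0.02), from 5.81, 6.100, 7.19 and 6.68 CPM to 8.78, 11.1, 9.695 and 8.03 CPM, although its call was lost (adjusted p up to 0.1) without MR + vector replicate 1 or 2 or without MR + iBRD9 replicate 2 or 3. Among immunoglobulin receptors, 2 of 7 fell, against 2.05% of all genes tested. Only 1 was called without MR + vector replicate 2 or without MR + iBRD9 replicate 4. The high-affinity receptor gene Fcgr1 was at 133, 126, 122 and 124 CPM with vector and at 101, 94.7, 107 and 107 CPM with iBRD9 (log2 change -0.30, adjusted p = 0.00031). The receptor of M-CSF itself, Csf1r, was not called, at 1205, 1251, 1164 and 1221 CPM with vector and 1159, 1152, 1131 and 1121 CPM with iBRD9 (adjusted p = 0.18).

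**Figure D2:**
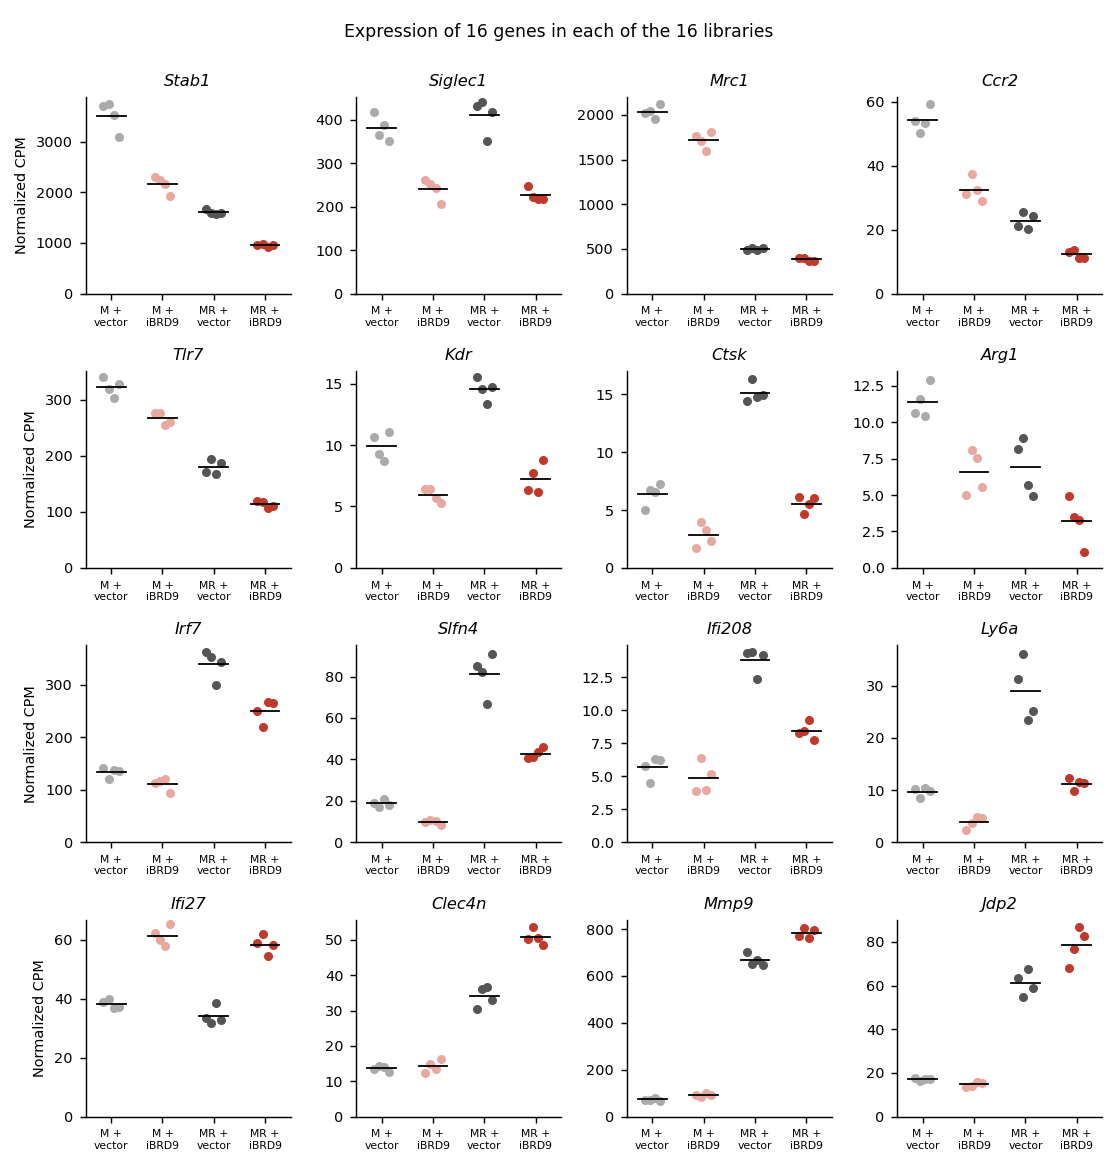
Normalized CPM of 16 genes in each of the 16 libraries, 1 point per library with the group mean as a line and the groups side by side, those without RANKL on the left. In the 12 genes of the upper rows the 4 MR + iBRD9 libraries lie below the 4 MR + vector libraries, and in Ifi27, Clec4n, Mmp9 and Jdp2 they lie above them.

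ISGs fell across families, by modest amounts. In 4 lists of interferon-inducible genes (antiviral effectors, the Ifi200 family, the Schlafen family, and the guanylate-binding and immunity-related GTPases), 40 of 90 tested members fell and none rose, against 2.05% of all genes called lower. Log2 changes were below zero in 81 of the 90, against 5803 of all 11559 genes, with a median of -0.21. In 38 of the 40 genes that fell, the libraries of the groups did not overlap, against 304 of all 320 called genes. The calls were made on these same libraries, so the lack of overlap adds nothing to them. MR + vector replicate 3 was the lowest vector library in 34 of the 40 and the highest in 0. Without that library 47 members were called lower, and without MR + vector replicate 1, the highest vector library in 21 of the 40, 26 were.

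Among regulators of the response, Irf7, the transcription factor that amplifies type I interferon production (ENSMUSG00000025498, chr7:140842619-140846394 on GRCm39), was at 362, 352, 300.2 and 343 CPM in MR + vector and at 250.2, 220.1, 267 and 266 CPM in MR + iBRD9. The groups did not overlap, and Irf7 fell by 0.44 ± 0.06 (SE; edgeR adjusted p = 6.3e-05). Stat2, which pairs with IRF9 in the interferon-activated complex ISGF3, was at 265, 236, 222 and 246 CPM with vector and at 199, 196, 196 and 199 CPM with iBRD9 and fell by 0.29 (adjusted p = 0.00015). Its partner Irf9 overlapped between groups, at 97.4, 110.3, 102 and 102 CPM with vector and 102, 101, 104 and 102 CPM with iBRD9 (log2 change -0.01, adjusted p = 0.96). The receptor chains of type I interferon were not called: Ifnar1 had a log2 change of 0.02 (adjusted p = 0.89) and Ifnar2 of -0.14 (adjusted p = 0.16). The gene of the ligand, Ifnb1, was at 0 counts in all 8, which allows up to 0.173 to 0.195 CPM at these depths, by a limit of 3 counts that covers counting error only. The median change was -0.056 in the list of receptors, sensors and signal transducers as a whole. Of its 25 tested members, 7 fell and none rose, against 2.05% and 0.718% of all genes tested. Only 3 were called without MR + vector replicate 1 and 3 without MR + vector replicate 2.

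The antiviral effector list had the most falls by count, 25 of 57 tested, with a median log2 change of -0.199, and 11 were called without MR + vector replicate 1. Oasl2, an oligoadenylate synthetase-like protein, was at 348, 330.0, 299 and 333 CPM with vector and at 263, 263, 262 and 267 CPM with iBRD9 (log2 change -0.31, adjusted p = 6.3e-05). The 4 iBRD9 libraries of Oasl2 were nearly level with each other and below the lowest vector library. Ifitm3, which blocks viral entry at endosomal membranes, was at 946, 956, 929 and 896 CPM with vector and 750.1, 711, 786 and 749.7 CPM with iBRD9 (log2 change -0.31, adjusted p = 6.3e-05). Phf11b fell by 0.41 (adjusted p = 0.00019). Changes in this list reached from -0.61 to 0.23.

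The Ifi200 genes, a cluster of DNA-binding HIN domain proteins on chromosome 1, fell in 8 of 12 tested members with none rising, with a median of -0.297, and all 8 calls held without each of the 8 libraries. Ifi208 was at 14.4, 14.4, 12.4 and 14.2 CPM in MR + vector and at 8.25, 8.47, 9.23 and 7.72 CPM in MR + iBRD9, a fall of 0.71 ± 0.13 (SE; adjusted p = 0.00085). Ifi211 was at 71.8, 70.7, 59.9 and 71.3 CPM with vector and at 51.03, 45.7, 51.6 and 54.6 CPM with iBRD9 (log2 change -0.43, adjusted p = 0.00016). In both genes MR + vector replicate 3 stood below the other vector libraries and above all iBRD9 libraries. Ifi209 and Ifi204 fell by 0.32 and 0.28. In the Schlafen family, whose members curb proliferation and viral translation, 4 of 7 tested members fell and none rose. Slfn4 was at 84.98, 81.96, 66.7 and 90.97 CPM with vector and at 40.8, 40.9, 43.6 and 45.9 CPM with iBRD9 and fell by 0.92 ± 0.08 (SE; adjusted p = 6.6e-10). Slfn1 fell by 0.78 (adjusted p = 0.00031) and Slfn8 by 0.44 (adjusted p = 2.1e-05). Among the GTPases, Ifi47, Irgm1 and Irgm2 fell, 3 of 14 tested, by 0.42, 0.36 and 0.36. Reads of near-identical members of these families may be split or shared between them, so single members are less certain than the family.

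Not every gene with an interferon label fell. Ifi27, which encodes a mitochondrial interferon-inducible protein, was at 33.3, 31.7, 38.6 and 32.9 CPM in MR + vector and at 58.98, 61.9, 54.3 and 58.04 CPM in MR + iBRD9, with all iBRD9 libraries above all vector libraries, and rose by 0.77 ± 0.06 (SE; edgeR adjusted p = 4.7e-10). Its relative Ifi27l2a was not called, with a log2 change of -0.26 (adjusted p = 0.095). Ly6a, which encodes the surface protein SCA-1 and responds to interferon, was at 31.3, 36.1, 23.4 and 25.2 CPM with vector and at 12.2, 9.76, 11.6 and 11.3 CPM with iBRD9. It fell by 1.36 ± 0.13 (SE; adjusted p = 1.3e-08), and 2 of the 4 Ly6 genes tested fell, 1 of them without MR + vector replicate 2. Of 20 class I antigen presentation genes, 1 fell, H2-T24 (log2 change -0.43, adjusted p = 0.00019), and of 14 class II and costimulation genes 1 fell, Ctss, described with the lysosomal genes. Over all genes tested, 2.05% fell.

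**Figure D3:**
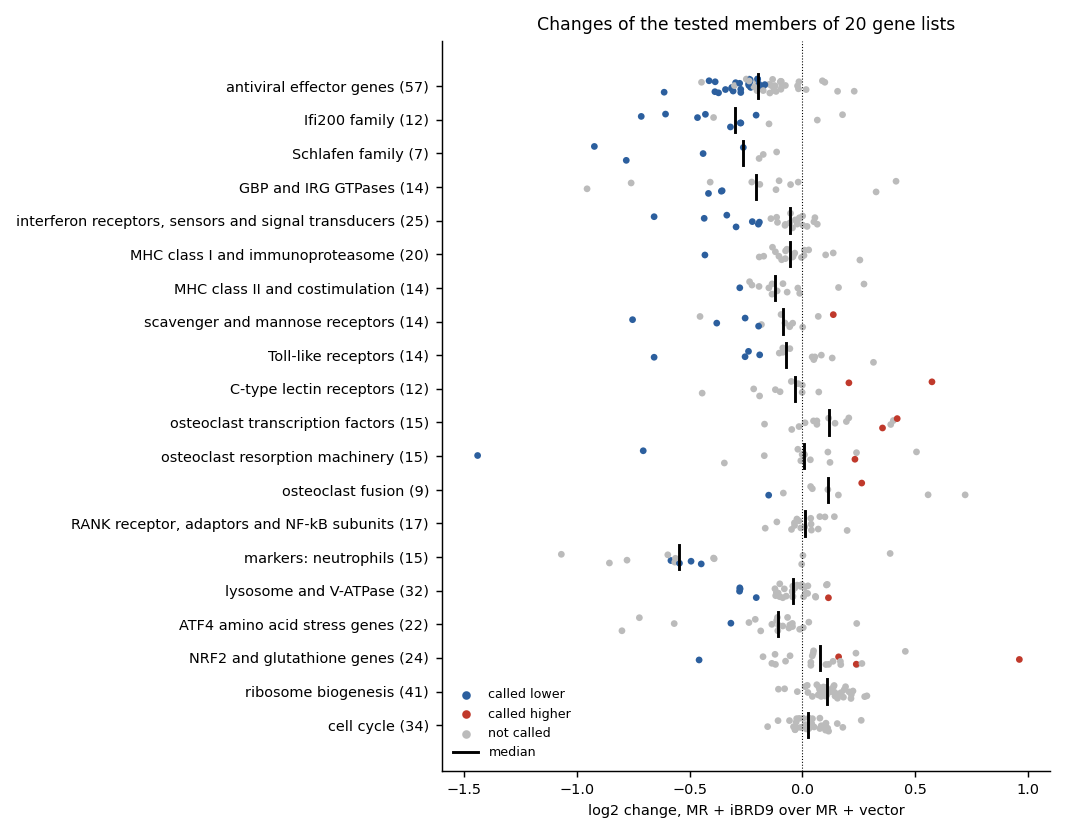
Log2 change of MR + iBRD9 over MR + vector for every tested member of 20 gene lists, 1 point per gene, with the number tested in brackets, the list median as a black bar and the median of all genes as a dotted line. The medians of the 4 interferon-inducible families lie between -0.297 and -0.199, and those of the osteoclast transcription factors and the ribosome biogenesis genes at 0.117 and 0.11.

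Promoter sequences of the ISGs that fell were read from RefSeq, mouse build GRCm38.p6, to show which of them carry the interferon-stimulated response element (ISRE) that ISGF3 binds. The element was searched on both strands as GAAA, 2 bases of any kind and GAAA again, from 250 bases before the start of transcription to 50 bases after it, and a match is a description of the letters only. A set of 46 genes was made of the 40 members of the 4 families that fell together with Irf7, Stat2, Zbp1, Dhx58, Ddx58 and Ifih1. Of the 39 with a promoter in the table, 24 (61.5%) held the ISRE letters, against 11 of 145 (7.59%) other genes that fell, 2 of 66 (3.03%) genes that rose and 4.04% of all genes tested. Members of the 4 families that were not called held it in 23 of 42 promoters (54.8%). The genes added to the families all fell, and no uncalled genes were added beside them. The AP-1 letters TGANTCA, the binding motif of FOS and JUN proteins, were in 16.3% of promoters of genes that fell and in 15.2% of those that rose, against 6.15% of all genes tested. The following stretches of 46 to 60 bases end at or before the start of transcription, run 5′ to 3′ on the strand of the gene, and have the ISRE letters, or their reverse complement, in capitals.
Ifi208: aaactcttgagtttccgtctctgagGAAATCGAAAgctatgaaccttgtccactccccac
Ifi213: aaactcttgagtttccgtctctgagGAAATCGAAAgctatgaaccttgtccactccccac
Ifi206: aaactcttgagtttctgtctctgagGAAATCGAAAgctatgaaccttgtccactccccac
Ifi211: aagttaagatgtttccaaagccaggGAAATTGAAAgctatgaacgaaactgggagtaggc
Irgm2: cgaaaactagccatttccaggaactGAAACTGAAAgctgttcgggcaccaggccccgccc
Phf11b: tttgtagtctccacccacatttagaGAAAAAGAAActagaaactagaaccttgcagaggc
Slfn8: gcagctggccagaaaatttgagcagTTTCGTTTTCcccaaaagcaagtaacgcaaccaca
Stat2: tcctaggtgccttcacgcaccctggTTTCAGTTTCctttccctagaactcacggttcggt
Ctss: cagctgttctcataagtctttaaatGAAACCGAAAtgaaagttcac
The stretches lie at chr1:173673582-173673641 (plus strand) for Ifi208, chr1:173599311-173599370 (minus strand) for Ifi213, chr1:173491324-173491383 (minus strand) for Ifi206, chr1:173913049-173913108 (minus strand) for Ifi211, chr11:58214888-58214947 (plus strand) for Irgm2, chr14:59341346-59341405 (minus strand) for Phf11b, chr11:83020824-83020883 (minus strand) for Slfn8, chr10:128270251-128270310 (plus strand) for Stat2 and chr3:95526740-95526785 (plus strand) for Ctss. The Ifi208 and Ifi213 stretches are identical at 60 of 60 bases, Ifi206 matches them at 59 of 60, and Ifi211 shares 30 of 60 with Ifi208. The log2 change was -0.71 for Ifi208, -0.47 for Ifi213 and -0.61 for Ifi206. Stretches are shown only for genes that fell, so the shared direction says nothing about the shared letters. Ctss, which belongs to none of the interferon lists, carries the element within the last bases before its start. No match says only that the letters are absent from the window searched.

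Osteoclast genes moved in both directions. Ctsk, which encodes cathepsin K, the protease that degrades bone collagen (ENSMUSG00000028111, chr3:95406567-95416673 on GRCm39), was at 14.4, 16.3, 14.8 and 14.95 CPM in MR + vector and at 6.11, 4.63, 5.49 and 6.01 CPM in MR + iBRD9. The lowest vector library was more than 2-fold above the highest iBRD9 library, and Ctsk fell by 1.44 ± 0.15 (SE; edgeR adjusted p = 1e-07). Mmp9, the gelatinase that osteoclast precursors secrete, was at 703, 649.6, 668 and 645 CPM with vector and at 772, 804, 761 and 796 CPM with iBRD9, without overlap, and rose by 0.23 ± 0.05 (SE; adjusted p = 0.002). Per length, Mmp9 was at 189 ± 7.08 FPKM (SD, n = 4) with vector against 10.0 ± 0.531 FPKM for Ctsk, so the gene that rose was the more abundant. The membrane-bound collagenase gene Mmp14 fell by 0.71 (adjusted p = 0.041), from 5.68, 7.398, 4.97 and 6.33 CPM to 4.57, 3.399, 3.27 and 3.68 CPM, but among the 8 fits without 1 of the compared libraries it was called only without MR + vector replicate 3 and without MR + iBRD9 replicate 1, with an adjusted p of up to 0.197 without the others. Acp5, which encodes the osteoclast acid phosphatase TRAP, was at 14.6, 13.6, 14.03 and 15.3 CPM with vector and at 16.4, 16.3, 17.8 and 17.5 CPM with iBRD9. Its iBRD9 libraries all stood above the vector libraries, but with a log2 change of 0.24 ± 0.09 (SE) it did not pass the test (adjusted p = 0.19). In the resorption list, 1 of 15 tested members rose and 2 fell, against 0.718% and 2.05% of all genes tested.

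Of 15 transcription factors of osteoclast differentiation tested, 2 rose and none fell, where 0.718% of all genes tested rose. Log2 changes were above zero in 12 of the 15, against 5752 of all 11559 genes, and the median was 0.117. Jdp2, an AP-1 family protein needed for osteoclast formation in mice, was at 63.5, 54.9, 67.7 and 59.1 CPM with vector and at 68.00, 76.6, 86.6 and 82.5 CPM with iBRD9 and rose by 0.36 ± 0.07 (SE; adjusted p = 0.0015). Fosl2, another AP-1 member, was at 33.7, 26.9, 34.3 and 31.6 CPM with vector and at 41.9, 44.1, 38.9 and 44.6 CPM with iBRD9 and rose by 0.42 ± 0.08 (SE; adjusted p = 0.0015). In both genes every iBRD9 library was above every vector library. Fos had overlapping libraries, at 139, 119.8, 151 and 130.2 CPM with vector and 139, 152, 156 and 175 CPM with iBRD9 (adjusted p = 0.11). Nfatc1, the master factor of osteoclast differentiation, was at 64.6, 62.2, 63.4 and 63.6 CPM with vector and at 68.2, 71.9, 65.8 and 74.8 CPM with iBRD9 (log2 change 0.14, adjusted p = 0.2). Myc had a log2 change of 0.40 ± 0.13 (SE; adjusted p = 0.092), with overlapping libraries, and Mitf and Spi1 were close to zero, at -0.01 and 0.06. The forkhead gene Foxp1 was not called either (log2 change -0.07, adjusted p = 0.58).

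Of the 9 fusion genes tested, Adam8 rose and Cd47 fell, against 0.718% and 2.05% of all genes tested. The call of Cd47 was kept, among the 8 fits without 1 of the compared libraries, only in that without MR + vector replicate 3 (adjusted p up to 0.139 without the others). Adam8, a membrane metalloprotease-disintegrin that promotes osteoclast fusion, was at 1445, 1259, 1418 and 1359 CPM with vector and at 1554, 1618, 1636 and 1769.8 CPM with iBRD9 (log2 change 0.26 ± 0.05 SE, adjusted p = 0.00088). Dcstamp, the transmembrane protein required for cell fusion, was at 5.62, 5.45, 5.73 and 6.22 CPM with vector and at 9.197, 8.16, 6.42 and 10.2 CPM with iBRD9, without overlap, but its log2 change of 0.56 ± 0.21 (SE) did not pass the test (adjusted p = 0.2). Ocstamp had 11 to 19 counts with vector and 16 to 34 with iBRD9, and overlapped. Calcr, a marker of mature osteoclasts, had 0 counts in all 8 libraries, and Oscar had at most 4. None of the 17 genes of the RANK receptor, its adaptors and the NF-κB subunits were called by edgeR, 2 had an unadjusted p below 0.05 and DESeq2 called 1. Tnfrsf11a, the RANK receptor itself, was at 114, 106, 108 and 107 CPM with vector and 117, 114, 112 and 125 CPM with iBRD9 (adjusted p = 0.4). None of the 10 genes of ITAM costimulation were called, with 3 at an unadjusted p below 0.05 and 0 called by DESeq2. Over all genes tested, edgeR called 2.77%, and 1533 of 11559 had an unadjusted p below 0.05. Among repressors of osteoclast formation, Irf8 fell by 0.17 (adjusted p = 0.024) and Rbpj rose by 0.14 (adjusted p = 0.021), and each call was lost in 5 of the 8 fits without 1 library (adjusted p up to 0.133 for Irf8, without MR + iBRD9 replicate 4, and 0.131 for Rbpj, without MR + vector replicate 2).

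Several abundant macrophage transcripts were lower. Psap, the precursor of the saposins that help lysosomes degrade sphingolipids, was at 8357, 8693, 8260.3 and 8208 CPM in MR + vector and at 6963, 6835, 6974 and 6857 CPM in MR + iBRD9. The libraries within each group lay close together and the groups did not overlap, and Psap fell by 0.28 ± 0.03 (SE; adjusted p = 1.4e-07). The lysosomal protease cathepsin S, encoded by Ctss, was at 2051, 2101, 2024 and 2055 CPM with vector and at 1720.2, 1670.3, 1739.6 and 1659 CPM with iBRD9 and fell by 0.28 ± 0.03 (SE; adjusted p = 3.7e-06). Ctsc, cathepsin C, fell by 0.28 (adjusted p = 6.3e-05). In the list of lysosome and V-ATPase genes, 4 of 32 fell and 1 rose, against 2.05% and 0.718% of all genes tested, with a median of -0.043. The gene that rose, Atp6v1b2, a V-ATPase subunit (adjusted p = 0.049), lost its call without any 1 of the 8 libraries. Lyz2, lysozyme, was at 19802, 20697, 19811 and 19565 CPM with vector and at 17598, 17235, 18051 and 17634 CPM with iBRD9 (log2 change -0.18, adjusted p = 0.0015). Cybb, the catalytic subunit of the phagocyte NADPH oxidase, fell by 0.23 (adjusted p = 0.00031), whereas Ncf4, a cytosolic subunit of the same enzyme, rose by 0.22 (adjusted p = 0.0027). The macrophage transcription factor gene Maf fell by 0.24 (adjusted p = 0.00026).

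Granule genes of neutrophils, a cell type that bone marrow cultures can hold, were also tested. Of 15 tested, 4 fell and none rose, against 2.05% and 0.718% of all genes tested. Log2 changes were below zero in 13, against 5803 of all 11559 genes, and the median was -0.545. Mmp8, neutrophil collagenase, was at 28.4, 34.98, 26.2 and 28.7 CPM with vector and at 21.1, 19.96, 17.5 and 20.3 CPM with iBRD9 and fell by 0.58 ± 0.09 (SE; adjusted p = 7.3e-05). S100a8 and Ngp fell by 0.55 and 0.45, but among the 8 fits without 1 of the compared libraries S100a8 was called only in that without MR + iBRD9 replicate 3, and Ngp was not called without MR + vector replicate 1, 2 or 4 or without MR + iBRD9 replicate 2 or 4 (adjusted p up to 0.132 and 0.195). The summed level of the 18 markers was 114 to 140 CPM in MR + vector and 81.1 to 104 CPM in MR + iBRD9, without overlap. With RANKL these values move with the falls of the macrophage and interferon genes. Without RANKL the neutrophil sums overlapped, at 134 to 147 CPM in M + vector and 130 to 167 CPM in M + iBRD9. There the macrophage markers summed to 24400 to 26100 and 25200 to 28200 CPM. Of the 90 members of the interferon-inducible families, 28 were called lower and 2 higher without RANKL, against 3.73% and 3.08% of all genes tested. The part of the neutrophil genes in the other results was not tested.

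Genes of matrix proteases, arginine metabolism and chemokines also changed. Mmp27, a matrix metalloproteinase, was at 15.01, 14.5, 15.6 and 15.9 CPM in MR + vector and at 8.25, 7.35, 6.83 and 6.68 CPM in MR + iBRD9 and fell by 1.07 ± 0.10 (SE; adjusted p = 7e-09). Arg1, the arginase of alternatively activated macrophages, was at 8.17, 8.89, 5.67 and 4.96 CPM with vector and 4.92, 3.52, 3.27 and 1.103 CPM with iBRD9. The Arg1 groups nearly met but did not overlap, and it fell by 1.097 ± 0.24 (SE; adjusted p = 0.0059), a call lost with robust dispersion (adjusted p = 0.0731). Asns, asparagine synthetase, was the member of the 22 tested ATF4 target genes that fell (log2 change -0.32, adjusted p = 0.0059), where 2.05% of all genes tested fell. Of those 22, 19 had log2 changes below zero, with a median of -0.107, and 8 had an unadjusted p below 0.05. Of all 11559 genes tested, 5803 had log2 changes below zero and 1533 an unadjusted p below 0.05. Of 18 unfolded protein response and chaperone genes, 14 had log2 changes below zero, against 5803 of all 11559 genes, and the median was -0.076. A total of 3 fell and none rose, against 2.05% and 0.718% of all genes tested. Those that fell were Herpud1, which acts in the degradation of misfolded ER proteins (log2 change -0.29), the ER chaperone gene Hspa5 (-0.18) and the transcription factor gene Xbp1 (-0.17). Only 1 was called without MR + iBRD9 replicate 3. Among chemokines, Ccl3 rose by 0.39 (adjusted p = 0.00061) and Ccl6 and Pf4 fell by 0.31 and 0.31 (adjusted p = 3.3e-05 and 0.002). Stra6l, which encodes a retinol-binding protein receptor, fell by 0.76 (adjusted p = 3.4e-05).

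Genes that rose included enzymes and surface proteins. Gstt1, a glutathione transferase, was at 5.04, 6.42, 4.91 and 5.48 CPM in MR + vector and at 11.6, 11.2, 11.2 and 8.58 CPM in MR + iBRD9 and rose by 0.96 ± 0.19 (SE; adjusted p = 0.002). The groups did not overlap, with MR + iBRD9 replicate 4 lower than the other iBRD9 libraries. Of 24 NRF2 and glutathione genes, 3 rose and 1 fell, against 0.718% and 2.05% of all genes tested. The fall lost its call without MR + vector replicate 2, 3 or 4 or without MR + iBRD9 replicate 2 or 4. The rise of Gsr kept its call, among the 8 fits without 1 library, only without MR + vector replicate 3. The abundant peroxidase gene Prdx1 rose by 0.24 (adjusted p = 0.0002). Lpl, lipoprotein lipase, was at 4764, 4431, 4451 and 4815 CPM with vector and at 5589, 5699.8, 5863 and 5944 CPM with iBRD9 and rose by 0.32 ± 0.04 (SE; adjusted p = 1.2e-05), whereas the cholesterol exporter gene Abca1 fell by 0.33 (adjusted p = 0.0077, but 0.0619 without MR + vector replicate 2, 0.0521 without MR + iBRD9 replicate 4 and 0.138 with robust dispersion). Parvg, which encodes the integrin-linked adaptor γ-parvin, was at 38.6, 42.4, 42.4 and 40.1 CPM with vector and at 57.2, 54.3, 57.7 and 56.6 CPM with iBRD9 (log2 change 0.47, adjusted p = 1.3e-06). Emp2, an epithelial membrane protein, rose by 0.47 (adjusted p = 2.4e-05), and the genes better known from neurons, Ndrg4 and Nptx1, rose by 0.71 and 0.70 (adjusted p = 0.0019 and 0.0021).

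In several lists of core cellular programs edgeR called no gene. Over all genes tested, 2.77% were called and 1533 of 11559 had an unadjusted p below 0.05, so lists of these sizes can hold no call at that share. None of the 28 BAF complex and BET protein genes, including the ncBAF subunits tested, were called by edgeR or by DESeq2, with 4 at an unadjusted p below 0.05. The listed genes Gltscr1 and Gltscr1l were not found under those symbols, so not every ncBAF subunit was examined. None of the 41 ribosome biogenesis genes were called by either tool, but 38 of them had log2 changes above zero, against 5752 of all 11559 genes. Among the 41, 13 had an unadjusted p below 0.05 and the median was 0.11. Up to 2 of them were called higher when 1 of the 8 libraries was left out, and up to 6 over all alternatives. Among 34 cell cycle genes edgeR called 0 and DESeq2 1, with 8 at an unadjusted p below 0.05, and among 20 glycolysis and hypoxia genes edgeR called 0 and DESeq2 1, with 2 at an unadjusted p below 0.05.

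The libraries without RANKL, which share no library with the comparison above, allow the response to iBRD9 to be set beside that without RANKL. In M + iBRD9 against M + vector 787 genes were called, 6.81% of genes tested, 356 (3.08%) higher and 431 (3.73%) lower. Of the 320 genes called with RANKL, 119 (37.2%) were called in the same direction without it, 88 lower and 31 higher, and 7 in the opposite direction. The 119 shared genes are 15.1% of those called without RANKL. The interaction test, which asks whether the log2 changes differ, called 241 genes (2.08% of genes tested), of which 64 are among the 320 called with RANKL. The number of interaction calls ranged from 73 to 541 when single libraries were left out: 73 without MR + vector replicate 2 or without MR + iBRD9 replicate 4, and 541 without M + iBRD9 replicate 4.

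Stab1, Siglec1 and Ctsk fell both with and without RANKL. Stab1 went from 3511 ± 298 to 2153 ± 166 CPM (SD, n = 4) without RANKL, a log2 change of -0.71 against -0.75 with RANKL (interaction adjusted p = 0.82). Siglec1 changed by -0.66 without and -0.86 with RANKL (interaction adjusted p = 0.33). Ctsk went from 6.37 ± 0.983 to 2.81 ± 0.997 CPM (SD, n = 4), a change of -1.18 against -1.44 (interaction adjusted p = 0.69). In these genes the difference between conditions was within its error, which does not show that they respond alike. The same holds for Ly6a, at -1.31 and -1.36 (interaction adjusted p = 0.95), and for Ifi27, at 0.68 and 0.77 (interaction adjusted p = 0.73). Of the 40 interferon-inducible genes that fell with RANKL, 39 had log2 changes below zero without it and 21 were called lower. A called interaction was found in 0 of the 90 tested, against 2.08% of all genes tested. At that share 0 of 90 is close to the background and does not show that these genes respond alike.

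Other genes changed with RANKL more than without it, or the opposite way. Fosl2 changed by -0.16 without RANKL (adjusted p = 0.3) and by 0.42 with it, a difference of 0.58 ± 0.12 (SE; interaction adjusted p = 0.0078). Jdp2 was at 17.1 CPM in M + vector and 14.7 CPM in M + iBRD9, and its changes of -0.22 and 0.36 differed by 0.57 (interaction adjusted p = 0.0058). Both AP-1 genes rose with iBRD9 in the induced cells and were not called without RANKL. Clec4n and Emp2 followed the same pattern, with changes of 0.06 and -0.01 without RANKL (interaction adjusted p = 0.018 and 0.0055). Tlr7 fell in both conditions and further with RANKL, with log2 changes of -0.27 without and -0.66 with it (interaction adjusted p = 0.0029). Myc, not called with RANKL, changed by -0.61 without it (adjusted p = 0.024), and the difference of 1.01 ± 0.21 (SE) passed the test (interaction adjusted p = 0.0097). The interaction calls of Fosl2, Jdp2, Clec4n, Emp2, Tlr7 and Myc were kept in all 16 fits without 1 library. The ribosome biogenesis genes had a median log2 change of -0.153 without RANKL against 0.11 with it. Of the 41, 11 had a called interaction, against 2.08% of all genes tested. This count was not taken with single libraries left out.

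**Figure D4:**
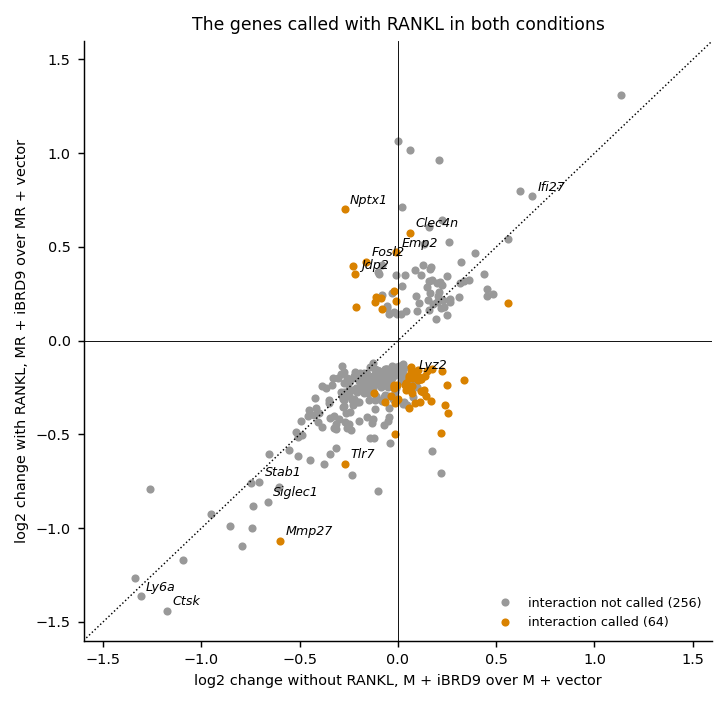
Log2 change with iBRD9 for the 320 genes called with RANKL, without RANKL on the x axis and with RANKL on the y axis, 1 point per gene, with genes whose interaction was called in orange (64) and equality as a dotted line. Stab1, Siglec1, Ly6a, Ctsk and Ifi27 lie near the line, Fosl2, Jdp2, Clec4n, Emp2 and Nptx1 lie above it, and 3 genes fall outside the plotted range.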

How the data were processed

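Total RNA of BMDMs was extracted with TRIzol and NEBNext Ultra II libraries were sequenced. The deposited counts per gene were made by the authors with cutadapt, HISAT2 on GRCm39 and HTSeq, and the deposited FPKM follow from these counts and gene lengths. Strand setting and annotation release are not given in the sources used here. Of 21898 genes, edgeR 4.0.16 (R 4.3.3) filtered out 10339 with filterByExpr, scaled all 16 libraries by TMM and fitted 1 mean per group with the quasi-likelihood test, two-sided, with a common coefficient of variation of 5.9%. DESeq2 1.42.0 was an alternative. The code was tested on simulated data. Coordinates are those of the count table (GRCm39), promoters those of RefSeq (GRCm38.p6).

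Genes were named by rule: 15 rises and 15 falls of largest log2 change (called, at least 5 CPM in the higher group, no overlap of libraries), the 3 called members of smallest p per list and direction, and a fixed set. The lists and genes were chosen with earlier results of these data known. Ifi206, Ifi213, Ifi27l2a, Zbp1, Dhx58, Ddx58 and Ifih1 fall outside the rule and were named after their values were seen. Not every gene that the rule names is reported here, while the counts include all genes. Alternatives were other scaling, no filter, DESeq2, only the 8 libraries, a replicate block, robust dispersion, other call rules and leaving out each library. Within-group library pairs differed by more than sampling noise, with a chi-square of 2.82 to 4.44 per degree of freedom.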

Additional observations from a re-analysis of the deposited data

Results flagged for a closer look

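The response to iBRD9 differed with and without RANKL by the edgeR interaction test, at an adjusted p below 0.05, for these named genes, given as the log2 change with RANKL minus that without. It was higher with RANKL for Adam8 (0.28), Clec4n (0.51), Emp2 (0.48), Fosl2 (0.58), Jdp2 (0.57), Myc (1.01), Nptx1 (0.97) and Spred1 (0.25). It was lower with RANKL for Abca1 (-0.44), Csf1r (-0.25), Cybb (-0.21), Herpud1 (-0.44), Ifnar2 (-0.29), Il10ra (-0.39), Irf8 (-0.25), Itgb5 (-0.31), Lyz2 (-0.26), Maf (-0.23), Mmp27 (-0.47), Pf4 (-0.31), Psap (-0.16), Sat1 (-0.32) and Tlr7 (-0.39). With each of the 16 libraries left out in turn, Clec4n, Csf1r, Emp2, Fosl2, Herpud1, Jdp2, Lyz2, Myc, Nptx1, Sat1 and Tlr7 kept the interaction call in all 16 fits, while Mmp27 kept it in 4, Pf4 in 5 and Psap in 2. Csf1r, Ifnar2 and Myc are among these without a call in MR + iBRD9 against MR + vector.

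In 14 of 226 groups of 4 libraries examined over the named genes, 1 library stood far from the other 3 by Dixon's ratio of gap to range, where chance gives about 1 in 20. In MR + vector these were replicate 1 for Cd180 (328 CPM), replicate 3 for Ifi204 (170.1 CPM), replicate 3 for Ifi208 (12.4 CPM), replicate 3 for Ifi211 (59.9 CPM), replicate 3 for Irgm2 (51.1 CPM), replicate 4 for Maf (318 CPM), replicate 2 for Nrp1 (177 CPM), replicate 4 for Pf4 (104 CPM), replicate 4 for S100a8 (10.7 CPM) and replicate 4 for Tmtc2 (6.39 CPM). In MR + iBRD9 they were replicate 4 for Gsr (293 CPM), replicate 4 for Gstt1 (8.58 CPM), replicate 1 for Siglec1 (248 CPM) and replicate 1 for Stra6l (16.7 CPM). MR + vector replicate 3 was the library apart, and the lowest, in Ifi204, Ifi208, Ifi211 and Irgm2.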

How the results depend on the processing

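Limits include the small effects and the dependence on single libraries. Of the named genes that the rule chose, every called gene kept its direction under every setting that gave it a value. Total counts shifted the median of all genes by 0.0189. The count of 320 called (83 higher, 237 lower) became 499 (166 higher) in a fit of only the 8 libraries, 455 (212 higher) at 1.2-fold with an unadjusted p below 0.05, and 14 (2 higher, 12 lower) when tested against 1.2-fold. DESeq2 called 383 and no filter 377. Leaving out 1 of the 16 libraries gave 199 to 411 called, 49 to 124 higher and 146 to 287 lower. Scaling by total counts raised the share of higher calls from 25.9% to 38.5%, with 106 higher and 169 lower. For M + iBRD9 against M + vector the leave-one-out range was 463 to 1104 called, 179 to 460 higher and 284 to 644 lower. The interaction moved from 241 called to 388 (228 higher) without the filter, 368 (211 higher) with DESeq2 and 189 higher with total counts, and leave-one-out gave 73 to 541, 32 to 317 higher and 41 to 224 lower. The interferon-inducible families had 26 to 47 members called lower with single libraries left out, 26 of them without MR + vector replicate 1.

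Some uncalled genes near zero changed sign. Over the fits without 1 library, Brd9 ranged from -0.071 to 0.004, Ifnar1 from 0 to 0.048, Irf9 from -0.039 to 0.02 and Mitf from -0.038 to 0.009, and with total counts Irf9 became 0.006 and Mitf 0.004. Deviations of same-numbered libraries of MR + vector and MR + iBRD9 correlated at 0.011, 0.004, 0.033 and 0.000 over all genes tested. Those of differently numbered libraries correlated at -0.045 to 0.039. Values over all genes, most of them unchanged, cannot decide whether the replicate numbers pair the libraries. With the replicate number as a block, 417 genes were called (118 higher, 299 lower), and the interaction gave 421 (214 higher, 207 lower). The cause of these movements was not tested. Depth of 15372775 counts or more limits only low genes such as Ccr3.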
